A study of Mus musculus with 2 samples.

Results

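Claudins and their partners at the tight junction were followed in single cells of the mouse small intestine through 8 genes of the 55357 in the count tables: the claudins Cldn2, Cldn3, Cldn4, Cldn7, Cldn15 and Cldn23, together with Ocln and Tjp1. The genes were picked by name, as rows of both feature tables whose symbol is one of these 8, and each symbol was found once in both. The libraries came from crypt-enriched small intestinal epithelium, and each was made from pooled 8-week-old male mice. One library was from Adipfl/fl mice, in which the adiponectin gene is flanked by loxP sites and left intact. The other was from Adipfl/flpVilli-CreT littermates, which carry the same floxed alleles and a Cre recombinase under the villin promoter that is active in gut epithelial cells. Pooling left 1 library for each genotype, so no difference between genotypes has a replicate check and no p-value is given. Intervals are exact 95% intervals that cover counting error only. Barcodes with over 500 genes and under 25% mitochondrial UMIs (unique molecular identifiers, each one captured transcript end) were kept.

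A tight junction seals the space between neighbouring epithelial cells near their apical edge. Claudins are its strand-forming membrane proteins, and which claudins a cell makes sets how easily ions and water pass between cells. Cldn2 and Cldn15 form channels for small cations, and mice need them for sodium recycling and nutrient uptake in the gut. Cldn3, Cldn4 and Cldn7 are mostly counted as sealing claudins, Cldn7 being found along the lateral membrane as well, and Cldn23 is less studied. Ocln encodes occludin, another membrane protein of the junction, and Tjp1 encodes ZO-1, the scaffold that ties claudins and occludin to actin.

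The libraries held 9791 and 11838 barcodes with 42150623 and 63370798 UMIs for Adipfl/fl and Adipfl/flpVilli-CreT. The filter left 3069 and 5555 cells with 25687687 and 48895126 UMIs and a median of 4838 and 4749 UMIs a cell. These are fewer cells than the study states for the same limits, so the classes below need not match its populations. The mitochondrial limit alone removed 4670 and 4263 barcodes. Adipoq, the deleted gene, had 1 UMI in all Adipfl/fl barcodes and 0 in the other library, too few to check the labels. The libraries shared 31 barcode sequences, 3 of them among the kept cells. Kept cells of both libraries together fell into 22 clusters, which were named from marker genes with the 8 genes and 105 other junction genes left out of the genes used to cluster.

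Of the absorptive lineage, 83 and 215 cells were crypt-like, 226 and 438 villus bottom-like, 1148 and 1804 mid-villus-like, and 577 and 1687 villus tip-like. The secretory classes held 225 and 409 goblet-like, 76 and 62 tuft-like, and 55 and 56 enteroendocrine-like cells. No cluster was named Paneth: 7 of 9 Paneth markers passed in the goblet-like cluster and also in the stem-like cluster, which carried 7 of 7 fibroblast markers as well. A cluster with 12 of 13 cycling and 3 of 9 goblet markers (4 and 67 cells) was left unnamed and is not in the crypt-like class. T cell-like barcodes (365 and 441 cells) are not epithelial, and what they held of an epithelial gene was taken as the level of free RNA. This has limits, since T cells of the gut lining are known to make some occludin. Doublets, barcodes that hold more than a single cell, were also not removed and were not told apart from free RNA. Depth and mitochondrial share moved with place on the villus: median UMIs a cell were 21458.5 and 20460.5 in villus bottom-like but 3773 and 3524 in villus tip-like cells, and median mitochondrial shares 6.71% and 5.85% against 20.2% and 20.4%. The part of depth and mitochondrial share in the zone differences was not tested beyond the alternatives given with them.

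Levels are CPM (UMIs per 1000000 UMIs of the class), in the order Adipfl/fl then Adipfl/flpVilli-CreT, with the interval in parentheses. Because UMIs tag only the 3′ ends of transcripts, each gene is mainly compared with itself across classes and libraries. Where different genes are set side by side or given as shares of a pair, the values describe UMIs only. They do not measure the relative amounts of the transcripts.

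The 6 claudins lie on 4 chromosomes of GRCm38 (GENCODE M21): Cldn2 on chrX:139800828-139811386, Cldn4 on chr5:134945119-134946934, Cldn3 on chr5:134986214-134987472, Cldn15 on chr5:136966616-136975858, Cldn7 on chr11:69964779-69967885 and Cldn23 on chr8:35824712-35826559. Ocln lies on chr13:100496507-100552718 and Tjp1 on chr7:65296165-65527781. Cldn3 and Cldn4 are single-exon neighbours on opposite strands, 39.3 kb apart with 0 annotated genes between them. Cldn3 overlaps the antisense gene Wbscr25 by 40 bases, and Tjp1 overlaps 3 short annotated loci. The sequences shown here are the 250 bases before the RefSeq start (GRCm38.p6) of 4 claudins whose courses are set side by side here, the channel claudins Cldn2 and Cldn15 and the neighbours Cldn4 and Cldn3, read 5′ to 3′ on the gene's strand. Capitals mark matches, on either strand, to any of 8 motifs. They are the TATA box (letters TATAAA), a Cdx-like motif (TTTATG), one for Gata factors (letters AGATAA), an HNF1 half-site (GTTAAT), a nuclear receptor half-site (AGGTCA), a GC box (GGGCGG), an AP-1 motif (TGANTCA) and a CRE half-site (TGACG). Cldn2 spans chrX:139800558-139800807 on the plus strand, Cldn15 chr5:136967619-136967868 on the plus strand, Cldn4 chr5:134946935-134947184 on the minus strand and Cldn3 chr5:134985964-134986213 on the plus strand.
Cldn2: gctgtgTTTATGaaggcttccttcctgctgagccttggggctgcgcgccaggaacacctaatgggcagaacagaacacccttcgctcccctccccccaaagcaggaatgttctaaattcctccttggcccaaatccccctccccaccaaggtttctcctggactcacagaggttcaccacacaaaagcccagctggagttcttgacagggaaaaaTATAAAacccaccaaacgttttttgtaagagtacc
Cldn15: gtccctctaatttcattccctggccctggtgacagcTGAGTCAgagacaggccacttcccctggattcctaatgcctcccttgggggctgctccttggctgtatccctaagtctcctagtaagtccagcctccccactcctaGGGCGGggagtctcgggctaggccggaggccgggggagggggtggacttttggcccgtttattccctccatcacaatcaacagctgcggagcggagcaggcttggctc
Cldn4: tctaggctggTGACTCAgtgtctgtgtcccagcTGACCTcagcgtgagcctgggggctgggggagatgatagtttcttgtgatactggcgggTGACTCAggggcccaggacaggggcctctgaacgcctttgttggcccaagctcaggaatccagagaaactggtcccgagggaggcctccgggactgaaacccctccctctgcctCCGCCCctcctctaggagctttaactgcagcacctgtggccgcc
Cldn3: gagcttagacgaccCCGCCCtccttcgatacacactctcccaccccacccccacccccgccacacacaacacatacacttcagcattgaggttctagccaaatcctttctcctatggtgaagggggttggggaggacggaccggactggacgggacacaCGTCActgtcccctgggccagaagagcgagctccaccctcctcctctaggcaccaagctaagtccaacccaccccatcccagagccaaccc

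Of 9 promoter entries for 7 of the 8 genes (Cldn23 had none), only the Cldn2 entry held TATAAA and TTTATG, which occur in 12.4% and 10.8% of all 32851 entries. GGGCGG was in 7 of 9 entries, against 32.7% of all, and not in that of Cldn2. TGANTCA, in 6.75% of all entries, had 2 matches in Cldn4 and 1 in Cldn15. AGGTCA was in 4 of 9 (14.0% of all), TGACG in 2 of 9 (17.8%), and AGATAA (9.99%) and GTTAAT (6.43%) in 0 of 9. A match describes these letters only, and is not a binding site.

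Cldn2, the leak-channel claudin of crypts, had its highest level in crypt-like cells of both libraries, at 59.0 (49.5 to 69.8) and 60.2 (53.9 to 67.0) CPM. Villus bottom-like cells had 10.3 (7.77 to 13.4) and 6.21 (4.84 to 7.85), from 56 and 70 UMIs. Mid-villus-like cells had 4 and 8 UMIs in all. Tip-like cells had 0 UMIs in 577 cells, which allows up to 1.54 CPM (95% limit), and 2 UMIs in 1687 cells. Levels therefore fell from crypt-like to villus bottom-like cells, with no overlap of intervals, and again to mid-villus-like cells in both libraries. The step from mid-villus-like to tip-like cells rests on too few UMIs to be read. The crypt-like level was 5.74-fold (4.18 to 7.98) and 9.68-fold (7.46 to 12.7) that of villus bottom-like cells. Against tip-like cells the ratio was at least 37.8 for Adipfl/fl, the 95% limit of the counts with none in the tip, and 199 (54.7 to 1650.2) for Adipfl/flpVilli-CreT on 2 UMIs.

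Within the crypt, Cldn2 was higher in the stem-like cluster, at 105 (77.7 to 139) and 92.9 (79.3 to 108). The transit-amplifying-like clusters, the smaller of which carried 8 of 12 stem markers, had 47.4 (38.0 to 58.4) and 44.6 (38.0 to 51.9). The ratios of stem-like to transit-amplifying-like were 2.21 (1.53 to 3.17) and 2.09 (1.67 to 2.60). The stem-like cluster is the one that also carries Paneth and fibroblast markers, whose part in the Cldn2 level was not tested. Those markers came mostly from Adipfl/flpVilli-CreT. In crypt-like cells Paneth markers summed to 27.6 and 386 CPM and fibroblast markers to 0.861 and 136. The makeup of the crypt-like class thus differed between the libraries. Of the 8 genes, Cldn2 alone was at least 2-fold higher in crypt-like than in villus bottom-like cells in both libraries, where 19.0% of the 10611 genes compared were. T cell-like barcodes held 0 Cldn2 UMIs in both libraries. Cycling T cell-like and myeloid-like barcodes of Adipfl/fl held 1 each. The gene is scarce, at 8.56 and 9.45 CPM over all kept cells, so these counts are too few to measure its free RNA. Thinned to 2000 UMIs a cell, 12.05% (5.93 to 21.04) and 10.3% (6.56 to 15.2) of crypt-like cells kept a Cldn2 UMI, against 56.6% and 55.3% without thinning and 0% of T cell-like barcodes (up to 1.07% and 0.934%).

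Cldn15, the other cation-channel claudin, was placed on the villus. Its levels were 267 (246 to 288) and 276 (262 to 289.8) in crypt-like cells, and 437 (420.0 to 455) and 481 (468 to 494) in villus bottom-like cells. They were 388 (375 to 401) and 464 (454 to 475) in mid-villus-like cells and 173 (157 to 190.3) and 238 (227 to 250.3) in tip-like cells. The bottom of the villus was highest in both libraries and the tip lowest among the absorptive classes, with intervals that did not overlap between bottom and tip. The tip-like level was 0.395 (0.355 to 0.439) and 0.496 (0.468 to 0.524) of the bottom-like level. The Adipfl/flpVilli-CreT value lies on the 2-fold line and left that call under 6 alternatives: with mitochondrial genes out of the denominator the ratios were 0.456 and 0.575, and without the 50 most abundant genes 0.582 and 0.713.

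The balance of the channel claudins differed by place. Of the UMIs from Cldn2 and Cldn15 together, Cldn2 made up 18.1% (15.4 to 21.1) and 17.9% (16.2 to 19.7) in crypt-like cells, 2.30% and 1.28% in villus bottom-like cells, and 0% and 0.127% in tip-like cells. The crypt-like shares of both libraries lay within each other's intervals.

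Cldn4, a sealing claudin, had the largest rise from villus bottom to tip of the 8 genes in both libraries. The fall of Cldn2 rests on 0 and 2 tip-like UMIs, with intervals too wide to rank against it. Crypt-like cells had 11.6 (7.66 to 16.9) and 27.6 (23.4 to 32.4) CPM, villus bottom-like cells 14.1 (11.2 to 17.7) and 28.5 (25.5 to 31.8), and mid-villus-like cells 22.9 (19.8 to 26.4) and 44.3 (41.0 to 47.7). Tip-like cells had 1416 (1368 to 1464) and 1654 (1623 to 1685). Against bottom-like cells this was 100.1-fold (79.9 to 127) and 58.1-fold (52.0 to 65.1), and against mid-villus-like cells 61.7-fold (53.4 to 71.6) and 37.4-fold (34.6 to 40.4). Over 12 alternatives the tip-to-bottom ratio ran from 46.0 to 213 and from 42.9 to 111. Among them, leaving out a mid-villus-like cluster could not move this ratio. Inside the tip, the cluster led by Nt5e, Gprc5a and Ly6m had 2096 and 2522 against 497 and 669 in the cluster led by Ubd, Pmp22 and Enpp3, a 4.22-fold (3.84 to 4.65) and 3.77-fold (3.59 to 3.96) difference.

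Below the tip, Cldn4 was at CPM levels also seen outside the epithelium. T cell-like barcodes held 22.8 (16.3 to 31.1) and 122 (107 to 138) CPM of Cldn4. In CPM that was the level of mid-villus-like cells in Adipfl/fl, and above the crypt-like and bottom-like values there. In Adipfl/flpVilli-CreT it was above all 3 of these levels. T cell-like barcodes were shallower, at a median of 4582 and 4025 UMIs against 19404 and 21268 in crypt-like cells. Per cell they held less Cldn4 than crypt-like or bottom-like cells in both libraries, with 40 and 243 UMIs in 365 and 441 barcodes. Crypt-like cells had 27 and 152 in 83 and 215 cells, and bottom-like cells 77 and 321 in 226 and 438. Mid-villus-like cells held more per cell than these barcodes in Adipfl/fl and less in Adipfl/flpVilli-CreT. After thinning, a Cldn4 UMI was found in 2.90% and 7.75% of mid-villus-like cells against 2.92% (1.41 to 5.30) and 7.63% (5.21 to 10.7) of T cell-like barcodes, and in 70.7% (66.7 to 74.5) and 74.1% (71.9 to 76.2) of tip-like cells. Without thinning the shares were 7.40% and 20.2%, 5.48% and 15.0%, and 78.0% and 80.4% in that order. The thinned mid-villus shares lie within the T cell-like intervals, so no expression is read from them. The part of free RNA in the levels below the tip was not tested.

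Cldn3, which lies next to Cldn4 and is also a sealing claudin, followed another course. It had 650.4 (618 to 684) and 697 (675 to 719) CPM in crypt-like cells, 911 (886 to 936) and 1042 (1023 to 1061) in villus bottom-like cells, 405 (392 to 419) and 433 (423 to 443) in mid-villus-like cells and 568 (538 to 599) and 569 (551 to 588) in tip-like cells. The bottom of the villus was highest and the middle lowest in both libraries. The bottom-like level was 2.25-fold (2.15 to 2.35) and 2.41-fold (2.34 to 2.48) the mid-villus-like one, and the tip stood 1.40-fold and 1.32-fold above the middle. Cldn4 made up 1.53% and 2.66% of the UMIs of the neighbouring pair in villus bottom-like cells but 71.4% and 74.4% in tip-like cells.

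Cldn7, the lateral claudin, was detected at every place. Its levels were 1725 and 1765 in crypt-like cells, 1908 (1872 to 1945) and 1978 (1952 to 2004) in villus bottom-like, 2022 and 2102 in mid-villus-like, and 4283 (4200.4 to 4367) and 4406 (4356 to 4457) in tip-like cells. The first 3 places lay close together and the tip apart from them. The tip-like level was 2.24-fold (2.18 to 2.31) and 2.23-fold (2.19 to 2.27) that of the bottom. This just passes 2-fold, and with no mitochondrial limit or with 30 principal components the ratio in Adipfl/fl was 1.90 and 1.80, under the line.

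Cldn23 was high at both ends of the villus. Villus bottom-like cells had 112 (104 to 122) and 107 (101 to 113), mid-villus-like cells 35.7 (31.9 to 40.0) and 36.3 (33.4 to 39.4), and tip-like cells 111 (98.1 to 125) and 137 (128 to 146). The bottom stood 3.14-fold (2.74 to 3.62) and 2.94-fold (2.66 to 3.26) over the middle, and the tip 3.11-fold (2.63 to 3.67) and 3.76-fold (3.38 to 4.19). Tip and bottom did not differ beyond counting error in Adipfl/fl, with a ratio of 0.988 (0.852 to 1.14), and the tip was 1.28-fold (1.17 to 1.40) higher in Adipfl/flpVilli-CreT.

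Ocln had 83.6 and 93.8 CPM in crypt-like cells, 110.0 (101 to 119) and 111 (105 to 118) in villus bottom-like cells, 90.5 and 93.1 in mid-villus-like cells and 215 (196 to 234) and 239 (227 to 251) in tip-like cells. The tip stood above the other places, 1.95-fold (1.73 to 2.20) and 2.15-fold (1.99 to 2.32) over the bottom. Tjp1 had 101 and 93.3 in villus bottom-like cells, 60.8 (55.7 to 66.2) and 49.9 (46.5 to 53.6) in mid-villus-like cells and 131 (117 to 146) and 112 (104 to 119.9) in tip-like cells. Its tip-like level was 2.15-fold (1.86 to 2.48) and 2.23-fold (2.02 to 2.47) the mid-villus-like one and 1.30-fold (1.12 to 1.49) and 1.196-fold (1.09 to 1.32) the bottom-like one. Within the crypt, Tjp1 had 40.7 and 34.9 in stem-like against 83.0 and 80.5 in transit-amplifying-like cells, the opposite order to Cldn2.

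**Figure D1:**
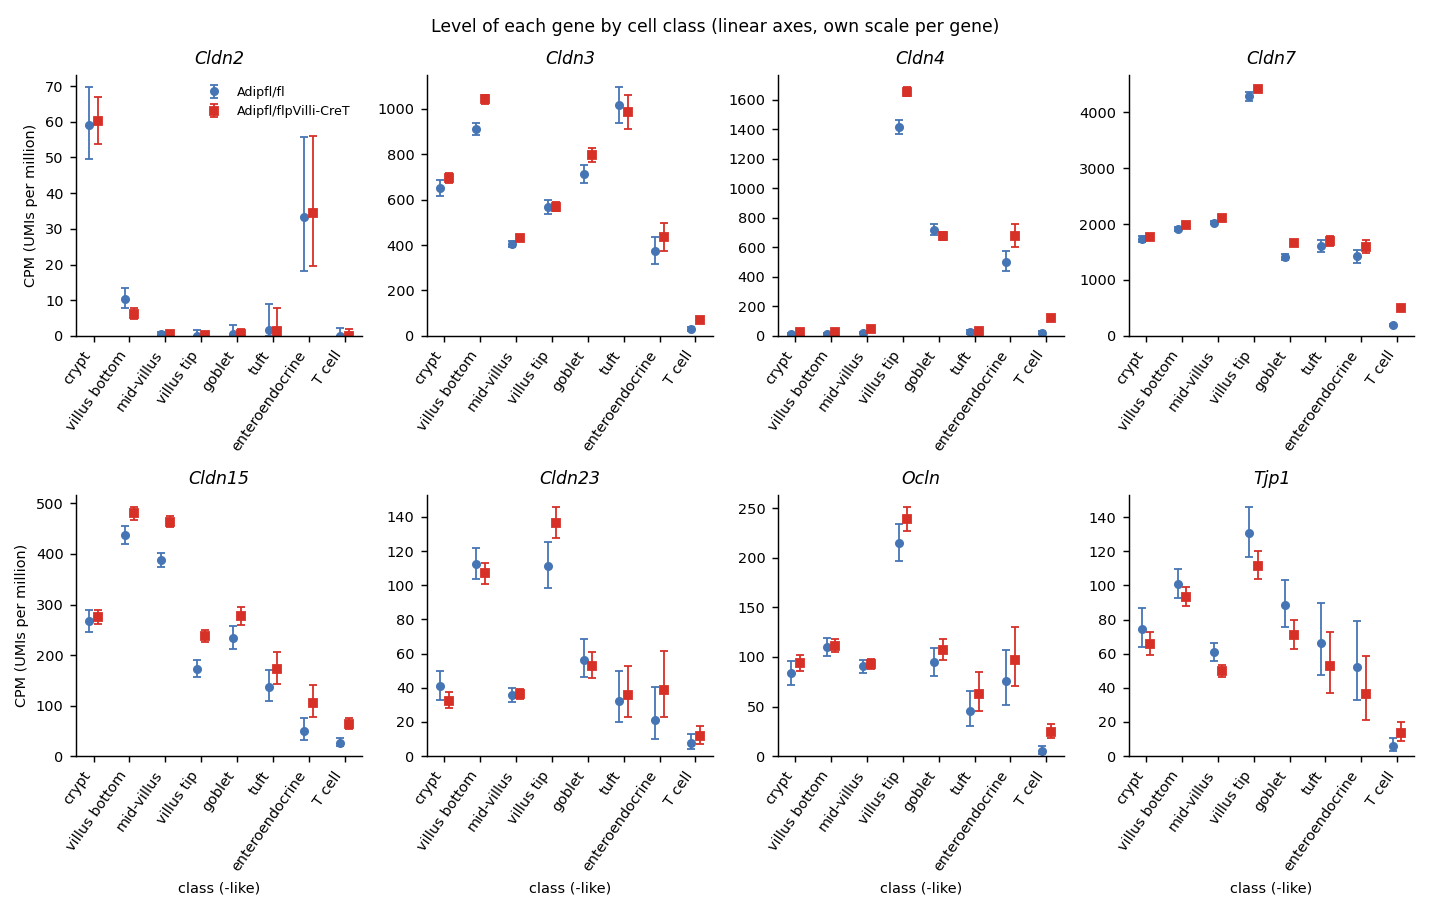
Each panel plots the level of 1 gene in CPM (linear axis from 0, own scale per gene) in 8 cell classes, circles for Adipfl/fl and squares for Adipfl/flpVilli-CreT, with bars for exact 95% counting intervals. Cldn2 is highest in crypt-like cells at 59.0 and 60.2, Cldn4 in tip-like cells at 1416 and 1654, and Cldn3 and Cldn23 are lower in mid-villus-like cells than at the bottom or tip.

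Of the 8 genes, 2 (Cldn4 and Cldn7) were at least 2-fold higher in tip-like than in bottom-like cells in both libraries, where 9.53% of 9952 genes were. Another 2 (Cldn2 and Cldn15) were at most 0.5-fold, where 50% of the genes were. The median gene was lower at the tip, with a log2 ratio of -1.198 and -1.173, while the median of the 8 was 0.18 and 0.31. Read against that shift, Cldn15 and Cldn3 (0.623 and 0.547 of the bottom) lay close to or above the median gene, and only Cldn2 lay clearly below it.

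Villus cells were also ordered by their share of tip landmark UMIs and cut into 5 equal bins over both libraries, with 5879 of 5880 cells used, so that the course did not rest on the borders between villus clusters. Cldn4 had 9.78, 19.6, 90.7, 739 and 2088 CPM from the lowest to the highest bin in Adipfl/fl, and 19.5, 56.4, 204, 854 and 2166 in Adipfl/flpVilli-CreT. It was higher in each bin than in the one before, 213-fold (169.8 to 272) and 111-fold (99.5 to 124) from end to end. Cldn15 had 443, 399, 309, 221 and 135, and 495, 463, 347, 286 and 205, lower at each step. Cldn7 had 1864, 1870.4, 2661, 3652 and 4379.7, and 1907, 2144, 2824, 3949 and 4603, higher at each step.

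The remaining villus genes were not one-directional. Cldn3 had 786, 399, 372, 461 and 591, and 837, 438, 378, 474 and 614, with its lowest level in bin 3. Cldn23 had 89.3, 42.6, 35.9, 71.8 and 133, and 77.1, 47.6, 47.7, 104 and 152. Tjp1 had 91.1, 58.9, 53.5, 99.6 and 171, and 77.1, 49.6, 54.99, 87.4 and 129. Both were lowest in bin 2 or 3 and highest in the last. Ocln had 101, 89.1, 112, 156 and 257, and 96.7, 102, 125, 194 and 269. The median UMIs a cell ran from 19109 and 18035 in the lowest bin to 3579 and 3633 in the highest, and the median mitochondrial share ran from 6.94% and 6.35% to 20.0% and 19.9%.

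**Figure D2:**
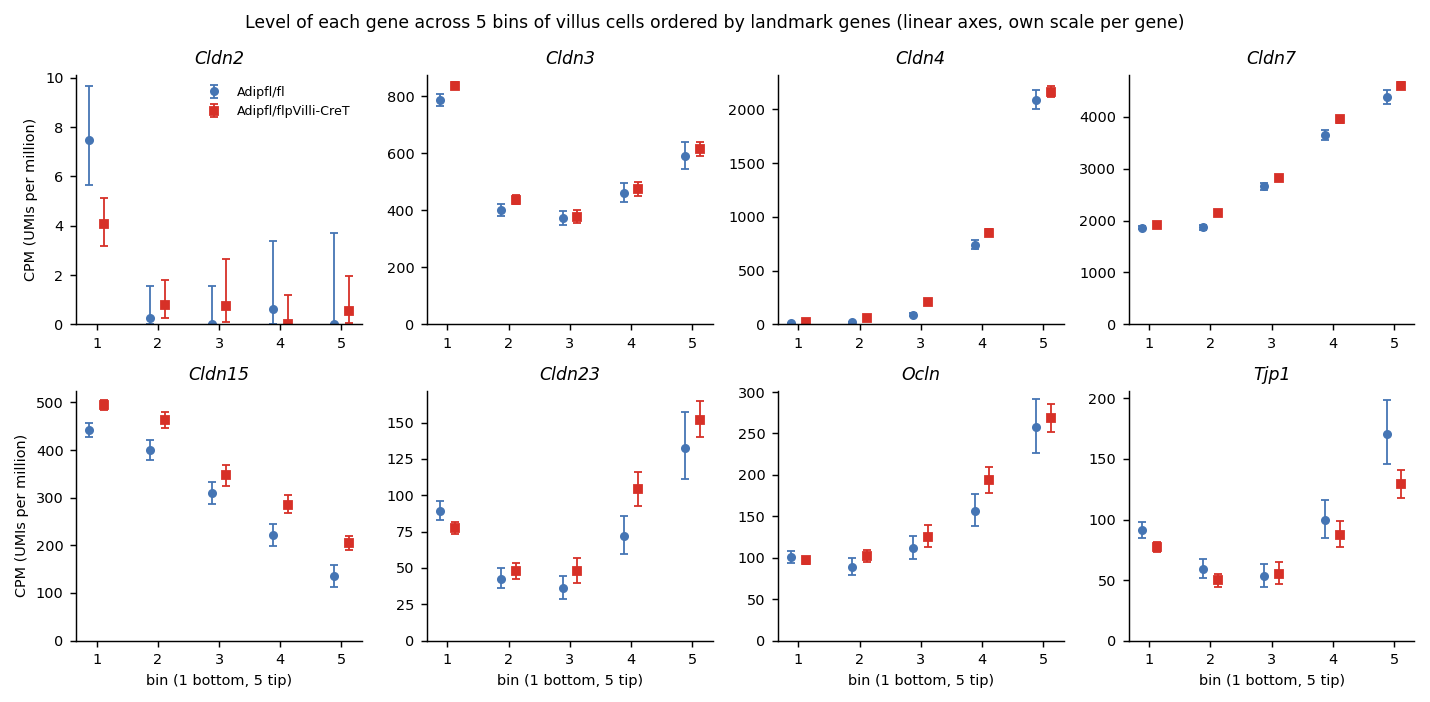
Each panel plots the level of 1 gene in CPM (linear axis from 0, own scale per gene) over 5 bins of villus cells ordered by landmark genes, from bin 1 (bottom) to bin 5 (tip), with circles for Adipfl/fl, squares for Adipfl/flpVilli-CreT and bars for exact 95% counting intervals. Cldn4, from 9.78 and 19.5 to 2088 and 2166, and Cldn15, from 443 and 495 to 135 and 205, run in opposite directions, and Cldn3 is lowest in bin 3.

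Secretory cells sit among the absorptive cells of the same epithelium, and each of these classes had its own set. Goblet-like cells, which make mucus, had Cldn4 at 718 (680.3 to 757) and 677 (651 to 704), close to the level of Cldn3 there, at 712 (675 to 751) and 796 (767 to 825). Cldn4 UMIs per 100 goblet-like cells were 604 and 615, near the 588 and 649 of tip-like cells. Goblet-like cells were deeper, with a median of 5582 and 6295 UMIs against 3773 and 3524. In CPM the tip-like level of Cldn4 was higher, at 1416 and 1654. Paneth markers summed to 5269 and 2799 CPM in this cluster, and their part in these values was not tested. Cldn4 gave 50.2% and 46.0% of the UMIs of the pair with Cldn3 in goblet-like cells.

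Tuft-like cells, the chemosensory cells of the epithelium, were at the other end. They had Cldn4 at 25.9 (14.8 to 42.0) and 30.003 (18.6 to 45.9), from 16 and 21 UMIs. In CPM that was close to the T cell-like level in Adipfl/fl and below it in Adipfl/flpVilli-CreT. Goblet-like cells had 27.7-fold (17.02 to 48.7) and 22.6-fold (14.7 to 36.5) more. After thinning, 5.71% and 8.20% of tuft-like cells had a Cldn4 UMI, against 59.1% and 64.0% of goblet-like cells (18.4%, 19.4%, 83.1% and 87.8% without thinning). The thinned tuft-like intervals, 1.58 to 14.0% and 2.72 to 18.1%, overlap those of T cell-like barcodes given above. Cldn3 was at its highest in tuft-like cells for Adipfl/fl, at 1014 (936 to 1097), and at 984 (912 to 1061) for Adipfl/flpVilli-CreT, 1.62-fold (1.49 to 1.75) and 1.45-fold (1.34 to 1.56) the mean of the 3 villus classes. The villus bottom-like level of Cldn3 did not differ from these beyond the intervals in Adipfl/flpVilli-CreT. The intervals of the 1.62-fold and 1.45-fold values take the villus mean as fixed.

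Enteroendocrine-like cells, which release hormones, had Cldn2 at 33.3 (18.2 to 55.8) and 34.5 (19.7 to 56.1), from 14 and 16 UMIs. That was 9.29-fold (5.08 to 15.6) and 14.7-fold (8.43 to 23.9) the mean of the villus classes, and below the crypt-like level in both libraries, though the intervals of the levels overlapped. The intervals of these folds are too narrow, since they take the villus mean as fixed. For Cldn2 that mean rests mostly on 56 and 70 bottom-like UMIs. With Cldn15 low in the same cells, at 49.9 (30.9 to 76.3) and 106 (78.2 to 139.7), Cldn2 made up 40.0% (23.9 to 57.9) and 24.6% (14.8 to 36.9) of the UMIs of the channel pair. Cldn4 was at 501 (436 to 574) and 675 (602 to 754) in these cells, 19.4-fold (11.7 to 34.5) and 22.5-fold (14.5 to 36.9) over tuft-like cells.

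The enteroendocrine-like class was made of 2 clusters. The one led by Cartpt, Reg4, Lmx1a and Tph1, genes of serotonin-making cells among them, had Cldn4 at 749 and 1019.8 from 143 and 248 UMIs, and the one led by the peptide hormone genes Ghrl, Gcg, Cck, Pyy and Sst had 296 and 295. The ratio was 2.53 (1.88 to 3.43) and 3.46 (2.62 to 4.62). Cldn2 did not differ between those clusters beyond counting error, with 6 and 9 UMIs against 8 and 7.

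Measured as counts of the 8 genes at least 2-fold over the mean of the villus classes in both libraries, goblet-like cells had 0 (7.62% of all 11519 genes), tuft-like cells 0 (20.7% of 11438) and enteroendocrine-like cells 1, Cldn2 (26.7% of 11522). The median log2 ratio of the 8 was -0.53 and -0.49 in goblet-like, -1.21 and -0.96 in tuft-like and -0.88 and -0.74 in enteroendocrine-like cells. Over all genes compared it was -0.29 and -0.21, 0.42 and 0.44, and 0.55 and 0.53. Ocln in tuft-like cells, at 45.3 and 62.9 from 28 and 44 UMIs, was among the low values.

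Between the libraries most levels of the 8 genes differed by under 1.5-fold. A pair of a gene and 1 of 7 epithelial classes was read where the UMIs reached 20 in both libraries together, which 52 of 56 pairs did. Of these, 5 were at least 1.5-fold higher in Adipfl/flpVilli-CreT, against 9.02% of the 65096 pairs over all genes, and 1 was at least 1.5-fold lower, against 5.97%. Of 52 pairs, both counts lay close to or below these shares. The median log2 ratio of the libraries over the 8 genes lay between 0.03 and 0.28 in the 7 classes, against -0.01 to 0.11 over all genes.

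Cldn4 made up 3 of the 5 higher pairs. The ratio of Adipfl/flpVilli-CreT to Adipfl/fl was 2.38 (1.57 to 3.72) in crypt-like cells, 2.01 (1.57 to 2.62) in villus bottom-like cells and 1.93 (1.65 to 2.27) in mid-villus-like cells. The crypt-like value was not shared by its parts: it was 0.913 (0.541 to 1.61) in stem-like cells, on 19 and 66 UMIs, and 5.35 (2.60 to 12.8) in transit-amplifying-like cells, on 8 and 86 UMIs. In T cell-like barcodes it was 5.35 (3.82 to 7.67). The 3 epithelial classes have low Cldn4. Tuft-like cells are low as well, and their ratio was 1.16 (0.576 to 2.38) on 16 and 21 UMIs. Where Cldn4 is plentiful the ratio was nearer to 1, at 1.17 (1.12 to 1.21) in tip-like, 0.943 (0.883 to 1.01) in goblet-like and 1.35 (1.13 to 1.61) in enteroendocrine-like cells. Per 100 cells, T cell-like barcodes held 10.96 and 55.1 Cldn4 UMIs, a step at least as large as those in crypt-like (32.5 and 70.7), bottom-like (34.1 and 73.3) and mid-villus-like cells (17.2 and 38.5).

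Other epithelial marker lists did not all move the same way in T cell-like barcodes. The 14 mid-villus markers summed to 1809 and 5365 CPM there, the 11 tip markers to 1665 and 3575 and the 9 goblet markers to 308 and 4091, with at most 1 gene of a list at 0. The stem, tuft and enteroendocrine lists went the other way, at 46.8 and 37.2, 325 and 300, and 41.1 and 31.7 CPM. T cell markers themselves summed to 74657 and 70711. The part of free RNA in the Cldn4 differences was not tested. After thinning, the bottom-like shares with a Cldn4 UMI ran the other way, 5.80% and 4.13%, at a level of about 1 UMI, and no difference is read from them. Across the bins the Cldn4 ratio was 2.00, 2.87, 2.25, 1.16 and 1.04 (0.988 to 1.09) from bottom to tip. Bin 3 held 12.9% tip-like cells in Adipfl/fl and 25.2% in Adipfl/flpVilli-CreT.

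**Figure D3:**
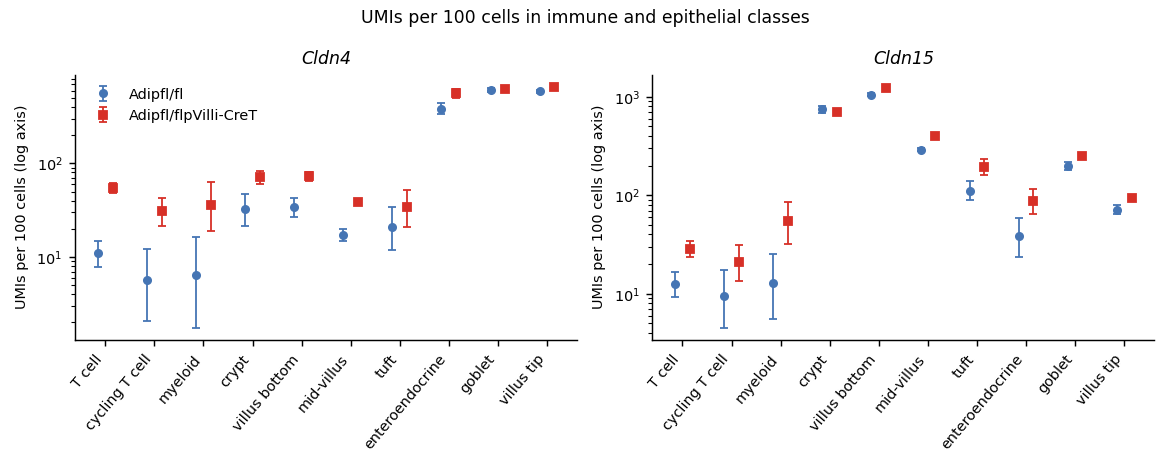
The left panel plots Cldn4 and the right panel Cldn15 as UMIs per 100 cells (log axis) in 3 immune and 7 epithelial classes, with circles for Adipfl/fl, squares for Adipfl/flpVilli-CreT and bars for exact 95% counting intervals. For Cldn4 the T cell-like value is 10.96 in Adipfl/fl, below the crypt, bottom, mid-villus and tuft values of 17.2 to 34.1, and 55.1 in Adipfl/flpVilli-CreT, within their 33.9 to 73.3, and the enteroendocrine, goblet and tip values stand above them at 384 to 649.

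Cldn15 was 1.10-fold (1.05 to 1.15) higher in bottom-like, 1.197-fold (1.15 to 1.25) in mid-villus-like, 1.38-fold (1.24 to 1.54) in tip-like and 1.18-fold (1.06 to 1.33) in goblet-like cells of Adipfl/flpVilli-CreT, and 1.03-fold (0.941 to 1.14) in crypt-like cells. In the bins it was 1.12, 1.16, 1.12, 1.29 and 1.52 (1.27 to 1.84). All of these villus ratios lay on the same side of 1. T cell-like barcodes had 26.2 and 63.3 CPM of Cldn15, a ratio of 2.41 (1.71 to 3.46) and a smaller step than that of tip-like cells, from 173 to 238. The part of free RNA in it was not tested. Enteroendocrine-like cells passed 1.5-fold for Cldn15, at 2.12 (1.25 to 3.72) from 21 and 49 UMIs, and for Cldn23, at 1.82 (0.774 to 4.59) from 9 and 18 UMIs. The Cldn23 interval holds 1, and after thinning 1.92% and 11.3% of enteroendocrine-like cells had a Cldn15 UMI against 3.79% and 6.87% of T cell-like barcodes (18.2%, 23.2%, 9.04% and 11.8% without thinning).

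Cldn2 gave the 1 lower pair, in villus bottom-like cells, at 0.604 (0.419 to 0.875) with 56 and 70 UMIs. Crypt-like cells had a ratio of 1.02 (0.833 to 1.25), and enteroendocrine-like cells had 1.04. Inside the crypt-like class it was 0.885 (0.640 to 1.24) in stem-like and 0.939 (0.721 to 1.23) in transit-amplifying-like cells. Both of these lay below the class value, with intervals that hold 1. The part of the mix of stem-like and transit-amplifying-like cells in the class value was not tested. In bin 1, which takes its cells from the same villus clusters and holds much the same number of UMIs (58 and 71), the ratio was 0.544 (0.379 to 0.783), and it is no independent check. Over 11 alternatives the bottom-like ratio ran from 0.561 to 0.637. How many of these UMIs come from cells just leaving the crypt was not tested.

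Tjp1 was below 1 in each of the 7 classes, from 0.701 in enteroendocrine-like to 0.925 (0.834 to 1.03) in bottom-like cells, with intervals under 1 in mid-villus-like cells at 0.822 (0.735 to 0.920), tip-like cells at 0.854 (0.747 to 0.978) and goblet-like cells at 0.798 (0.655 to 0.974). In the bins it was 0.846, 0.842, 1.03 (0.807 to 1.31), 0.878 and 0.754 (0.632 to 0.904) from bottom to tip. Under alternatives it reached 1.03 in crypt-like, 1.15 in bottom-like and 1.35 in enteroendocrine-like cells. It stayed under 1 in the other classes, so no decrease across all classes is read. No class passed 1.5-fold. Over all kept cells, immune and unnamed barcodes included, the ratio was 0.964 (0.911 to 1.02). The part of the mix of classes in that value was not tested. Cldn3 ran from 0.971 to 1.16, Cldn7 from 1.02 to 1.17 and Ocln from 1.01 to 1.39 over the classes.

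**Figure D4:**
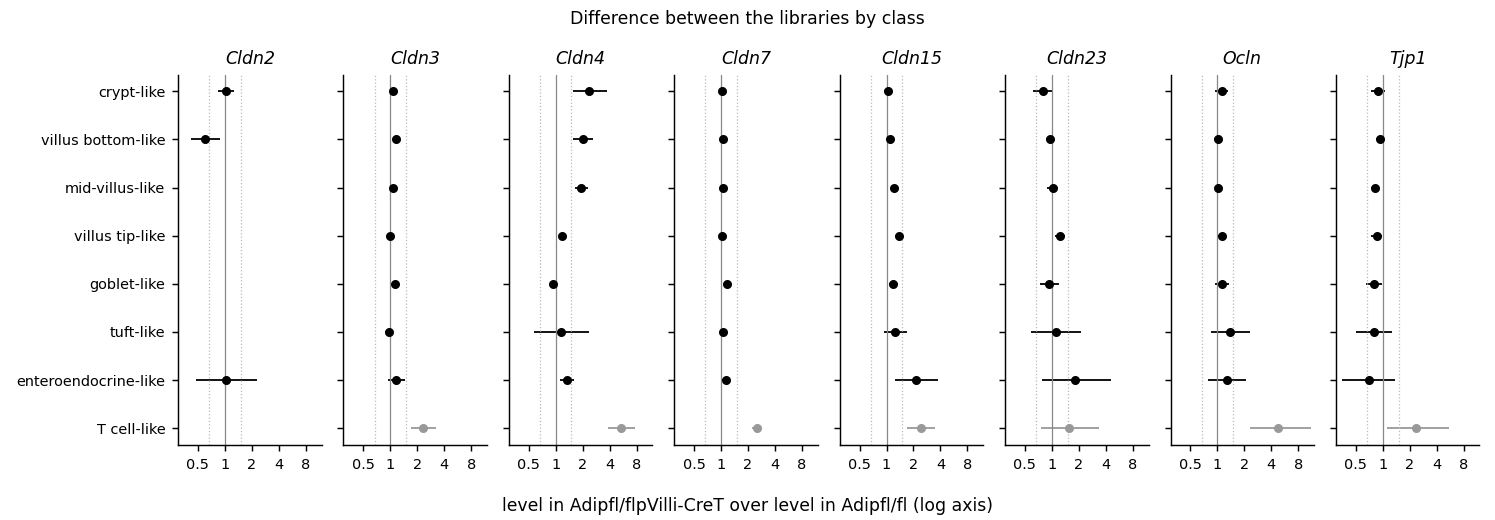
Each panel plots, for 1 gene, the level in Adipfl/flpVilli-CreT over that in Adipfl/fl (log axis) by class, with exact 95% counting intervals, a solid line at 1 and dotted lines at 1.5-fold, and T cell-like barcodes in grey. Only pairs that reached 20 UMIs are drawn. Cldn4 is furthest above 1 in T cell-like barcodes, at 5.35, and in crypt-like, bottom-like and mid-villus-like cells, at 2.38, 2.01 and 1.93.

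The other junction genes form lists by the part of the junction they belong to, and 105 of them were in the tables. Other claudins were nearly silent: 26 of 29 had under 20 UMIs in the kept cells and 17 had 0. The 1 that could be compared, Cldn12, was lower at the tip, at 0.293 (0.146 to 0.537) and 0.419 (0.295 to 0.583) of the bottom. Among other tight junction membrane proteins, 1 of 9 compared was at least 2-fold higher at the tip in both libraries and 2 at most 0.5-fold. Epcam, which binds Cldn7 and keeps it from being degraded, was the higher one, at 2.50-fold (2.44 to 2.55) and 2.36-fold (2.33 to 2.40), with 2782 and 2742 CPM at the bottom against 6947 and 6473 at the tip. Jaml was lower, at 0.0833 and 0.120, and reached 446 and 481 in T cell-like barcodes, where this adhesion molecule is also made. Of the tricellulin family, Marveld2 was at 0.470 and 0.376 and Marveld3 at 1.99 and 2.03.

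In the plaque and polarity list, 4 of 23 were higher and 4 lower at the tip. The polarity genes Pard6b, at 4.17-fold and 6.45-fold, and Pals1, at 3.73-fold and 3.88-fold, were higher. Ybx3, the ZO-1-associated nucleic acid-binding protein also called ZONAB, was lower, at 0.0432 and 0.0457, with 477 and 485 CPM in crypt-like, 174 and 172 in bottom-like and 7.51 and 7.86 in tip-like cells. Amot was at 0.274 and 0.273. Rab13, singled out after its values were seen because its tip-to-bottom ratio differed most between the libraries, was at 4.83 (1.98 to 12.9) and 1.34 (0.804 to 2.23) on 8 and 38 bottom-like UMIs.

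Desmosome genes had 3 of 9 higher and 1 lower at the tip. Pkp3 was at 5.13-fold and 4.49-fold, Dsp, the desmoplakin gene, at 3.94-fold and 3.54-fold and Dsc2 at 3.03-fold and 2.97-fold. Ppl was lower at 0.0988 (0.0024 to 0.609) and 0.0983 (0.0196 to 0.303) on few UMIs, and had 61.8 and 62.6 CPM in enteroendocrine-like cells. Of 11 adherens junction genes, 2 were higher and 1 lower, against the same shares of all genes: Jup, the plakoglobin gene, at 3.08-fold and 2.57-fold, Ctnna1, the alpha-catenin gene, at 2.42-fold and 2.44-fold, and Nectin1 at 0.372 and 0.439. Plekha7 was at 0.570 and 0.598.

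Non-muscle myosin pulls on the actin ring beside the junction. Mylk, the myosin light chain kinase gene, was at 0.224 (0.188 to 0.265) and 0.214 (0.193 to 0.237), from 276 and 300.3 at the bottom to 61.8 and 64.4 at the tip, and Myl12b at 0.287 and 0.333. Myh14 was at 2.11 and 1.77 and Myl12a at 0.584 and 0.508. List medians of the log2 ratio were 0.68 and 0.66 for desmosomes, 0.45 and 0.24 for membrane proteins, 0.17 and 0.02 for adherens junctions and -0.17 and 0.17 for plaque and polarity, against -1.198 and -1.173 over all genes. In these 4 lists and the other claudins, 0 genes were past 1.5-fold between the libraries in the same direction in all 3 villus classes.

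**Figure D5:**
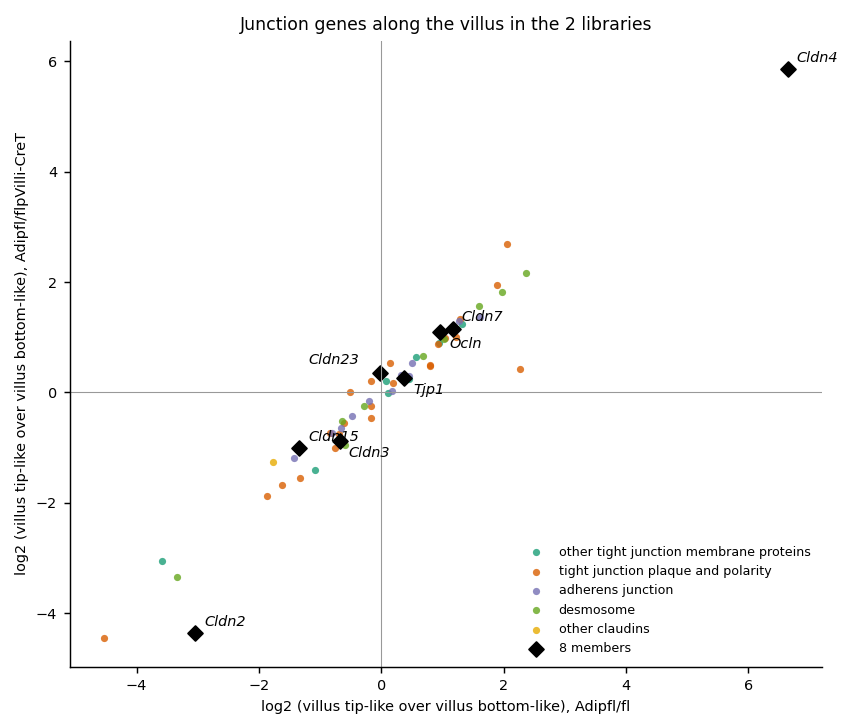
Log2 ratio of villus tip-like to villus bottom-like level in Adipfl/fl (x axis) and Adipfl/flpVilli-CreT (y axis) for the 8 genes (black diamonds, named) and the junction genes compared in the 4 lists and the other claudins (dots coloured by list). Cldn4 stands apart at 6.65 and 5.86, and the Cldn2 point for Adipfl/fl takes the floor of 3 UMIs.

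The genes most like each of the 8 in course were sought by Pearson correlation over 14 points, the 7 epithelial classes of both libraries, among 8510 genes. The points share libraries and depth, and r is a description. Cldn4 was most like Capn2 (0.98), Dusp10 (0.97) and S100a6 (0.95), and Cldn2 most like Lmo4 (0.98), Zfp326 (0.97) and Thumpd1 (0.97). Cldn15 was most like Cds1 (0.95), Cryl1 (0.94) and Got1 (0.93), and Cldn7 was like Mapk1ip1l and Tmem131 (both 0.96). Ocln was closest to Eepd1 (0.96), Azin1 (0.95) and Sfn (0.94). Cldn3 had weaker matches in Tspan8 (0.83), Efnb2 (0.83) and Tmem65 (0.82).

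Cldn23, with Serpinb6a (0.88), Atp10b (0.87) and Baiap2l1 (0.85), and Tjp1, with Itpkc (0.91), Flrt3 (0.90) and Atp10b (0.86), shared 1 gene among their closest. Between the 8 genes themselves, the highest r were for Cldn7 with Ocln (0.85) and Cldn23 with Tjp1 (0.84). The lowest was Cldn4 with Cldn15 (-0.47), and the neighbours Cldn3 and Cldn4 had -0.37.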

How the data were processed

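Single-cell 3′ RNA libraries (10x Genomics, V3 chemistry), 1 for each genotype, were used as the deposited UMI counts per gene and barcode. Per the submitters' processing notes and the file header, the authors made these counts with bcl2fastq 5.0.1 and Cell Ranger (7.1.0 in the header) on mm10. Free RNA and doublets were not removed.

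Barcodes with over 500 genes and under 25% mitochondrial UMIs were clustered in Seurat 5.3.0 under R 4.3.3 (2000 variable genes without the junction genes, 20 principal components, resolution 0.8). A marker counted at 2-fold or more and 10 UMIs, and a cluster took the list with the largest share of at least 3 markers. T cell names needed more markers. Other clusters with most cycling markers were left unnamed if at least 3 goblet markers passed. The rest of them were named stem-like by a higher number of stem markers, or otherwise transit-amplifying-like. Counts were summed by class and library with Python 3.11.15 and given as CPM (UMIs per 1000000 UMIs), with exact Poisson, conditional binomial or Clopper-Pearson 95% intervals (scipy 1.17.1). Intervals of a ratio to the mean of the villus classes took the Poisson limits of the numerator only, with that mean as fixed. Genes under 20 UMIs in a comparison were not read, and classes without UMIs took a floor of 3 UMIs. With 1 library per genotype no test was run. The scripts were tested on simulated data.

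Named genes were the 8 members, up to 4 genes of each junction list with the largest tip-to-bottom ratio and at least 50 UMIs, and the 3 genes most like each member on log2 (CPM + 10). Some genes and 1 list median are not reported here. The members and lists were chosen with earlier results of these data known. Alternatives covered filters, clustering, denominators, weighting, thinning to 2000 UMIs (179 and 296 shallower cells left out) and the fold called.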

Additional observations from a re-analysis of the deposited data

How the results depend on the processing

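No paired analysis was possible because each genotype has 1 library and the labels give no replicate numbers. Of the counts of genes or pairs recomputed under alternatives, 87 stayed within 1.5 times and 16 did not. The count of genes higher at the tip was 1 in place of 2 with no mitochondrial limit and with 30 principal components, where Cldn7 in Adipfl/fl was at 1.90 and 1.80. Ocln joined the higher genes at resolution 1.2 (2.03 and 2.30) and between the highest and lowest bins (2.55 and 2.78). It also did so with denominators without mitochondrial genes (2.25 and 2.49) or without the 50 most abundant genes (2.87 and 3.09). The count of genes lower at the tip was 1 in place of 2 with a minimum of 1000 genes, 30 principal components, denominators without mitochondrial or without the 50 most abundant genes, thinning to 2000 UMIs, and without the deepest 5% of cells; Cldn15 is the gene that crossed the line. After thinning, 1 gene, Cldn2, was higher in tuft-like cells in place of 0. Its values of 6.84-fold and 10.6-fold the villus mean come from the floor of 3 UMIs given to a class without UMIs, and are not a measured rise. Thinning also left 2 pairs in place of 5 higher in Adipfl/flpVilli-CreT, against 3 at 2-fold. Pairs lower in Adipfl/flpVilli-CreT were 2 in place of 1 with a 10% mitochondrial limit, a minimum of 1000 genes, the mean of per-cell levels or no filter on low values, and 0 at 2-fold. Of the single values, 6 were labelled as reversed on the log2 scale: Cldn3 between libraries in mid-villus-like cells (-0.0048 with the 10% limit and -0.0155 with 30 principal components, from 0.10), Cldn4 of enteroendocrine-like cells over the villus mean in Adipfl/flpVilli-CreT (-0.34 without the 50 most abundant genes, from 0.23), Cldn15 between libraries in goblet-like cells (-0.0091 with per-cell means, from 0.24), Cldn2 of goblet-like cells over the villus mean in Adipfl/fl (1.16 after thinning, from -2.76 on 1 UMI), and Cldn4 between libraries in bottom-like cells (-0.24 after thinning, from 1.01). The tuft-like Cldn2 values above were not among them. The thinned Cldn2 value of goblet-like cells also takes the floor of 3 UMIs. The cause was not tested for the others, beyond the fewer UMIs that thinning leaves. The 10% mitochondrial limit left too few tip-like cells for a tip or villus mean. Leaving out cluster 0, which stood between mid-villus and tip by its markers, an alternative chosen after the data were seen, moved none of the counts. This cluster was in the mid-villus-like class, so values that do not use that class, such as tip-to-bottom ratios, could not move.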

Other observations

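Barcodes with over 500 genes that only the mitochondrial limit removed, 4670 in Adipfl/fl and 4263 in Adipfl/flpVilli-CreT, belong to no class above, and their counts of the 8 genes are given as values, in CPM over genes other than mitochondrial ones. Cldn2, the crypt claudin, had 6 and 4 UMIs in these barcodes, at 0.685 and 0.502 against 9.48 and 10.5 in the kept cells. Cldn4, the tip claudin, stood at 332 and 659 against 231 and 349 in the kept cells, and Cldn7 at 2836 and 3474 against 2061 and 2411. Cldn3 was at 365 and 440.1 against 595 and 703. Ocln was at 117 and 191 against 103 and 125, and Tjp1 at 91.9 and 86.9 against 80.1 and 77.3. Cldn15, at 328 and 386 against 325 and 399, and Cldn23, at 59.9 and 88.5 against 64.4 and 73.2, differed in direction between the libraries. The kept cells include the immune classes, whose part in these comparisons was not tested. The removed barcodes were thus higher than the kept cells in Cldn4 and Cldn7 and lower in Cldn2 in both libraries, and were not assigned to places.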
